A study of Homo sapiens with 60 samples.

Results

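The genes described here are the FOXO transcription factors FOXO1, FOXO3 and FOXO4, with 7 genes known as targets or companions of FOXO in cells that leave the cell cycle: KLHL24, CCNG2, SESN3, BCL6, PIK3IP1, YPEL3 and CITED2. They were chosen by symbol with earlier results of these data known, as were the further gene lists below. Counts of these genes set against the share of all genes are therefore descriptions. All 10 were found among the 60675 genes of the deposited count table of HT29 cells. All 10 passed the filter on low counts, which left 16767 genes for testing. HT29 is an established human colorectal adenocarcinoma cell line.

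FOXO proteins are forkhead transcription factors. In cells with active phosphoinositide 3-kinase (PI3K), the kinase AKT phosphorylates them, and adaptor proteins of the YWHA family hold them in the cytoplasm. When PI3K is blocked, FOXO proteins enter the nucleus, bind forkhead sites and switch on genes that slow the cell cycle, dampen growth signals and prepare a cell for stress. This control acts on the proteins, so the mRNA of a FOXO gene is a different measure from the activity of its product.

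The study asked which transcripts respond to herbs of the tonifying class, with PI3K inhibitors as positive controls. HT29 cells were treated for 24 h with 10 µM wortmannin, a covalent PI3K inhibitor, with 10 µM LY294002, a reversible inhibitor of PI3K and mTOR, or with a water extract of 1 of 6 herbs at 20, 100 or 500 µg/mL. The herbs were Poria cocos, Atractylodis Rhizoma, Glycyrrhizae Radix (licorice root), Panax ginseng, Angelicae Gigantis Radix and Paeoniae Radix, called Poria, Atractylodis, Glycyrrhizae, Ginseng, Angelicae and Paeoniae. The vehicle was 0.1% DMSO per the sample labels. Each of 18 groups had 3 libraries, and each of the 3 Paeoniae groups had 2, which makes 60 libraries in 21 groups. The sample codes fall into 4 sets by their first number, here called code sets: vehicle and inhibitors share set 1, Poria and Atractylodis set 2, Glycyrrhizae and Ginseng set 3, and Angelicae and Paeoniae set 4. An extract set against vehicle is therefore also a code set against another, and extract and code set cannot be told apart there, whereas 500 against 20 µg/mL of an extract stays within a set. The vehicle codes alone carry a letter A before the first number, whose meaning is not stated. The titles of all 60 libraries name BatchA.

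The expected counts per library summed to 20431980 to 35477712. The epithelial markers EPCAM and KRT8 averaged 558 and 6660 CPM (read counts brought to the same total in each library), the colon gene LGALS4 482 CPM, and the intestinal regulators CDX2 and CDX1 5.07 and 0.864 CPM. PTPRC of leukocytes, COL3A1 of fibroblasts, VWF of endothelium and ALB of hepatocytes averaged 0.0241, 0.00753, 0.0339 and 0.00646 CPM. Not all such markers were this low. ITGAM of leukocytes averaged 1.63 CPM, COL1A1 of fibroblasts 1.26 CPM and PECAM1 of endothelium 1.7 CPM, each above CDX1. Around their group means, the libraries had a median residual SD of 0.0804 on the log2 scale. LY294002 replicate 3 had the highest, 0.158. The labels do not say that replicates were separate cultures, so the p-values measure the spread between these libraries, which may be technical. These are bulk samples, in which fewer cells with a transcript and less of it per cell cannot be told apart.

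The promoters of 3 members that were all higher in LY294002 libraries are shown, because each holds a match to a core that FOXO proteins bind. Each window runs from 250 bases before to 50 bases after an annotated start (RefSeq, GRCh38.p14). The letters GTAAACA, the forkhead core, and CAAAACA, the core of the insulin response element, were searched on both strands. Capitals mark the match, and in KLHL24 it is CAAAACA read on the other strand.
FOXO4, chrX:71095601-71095900, plus strand: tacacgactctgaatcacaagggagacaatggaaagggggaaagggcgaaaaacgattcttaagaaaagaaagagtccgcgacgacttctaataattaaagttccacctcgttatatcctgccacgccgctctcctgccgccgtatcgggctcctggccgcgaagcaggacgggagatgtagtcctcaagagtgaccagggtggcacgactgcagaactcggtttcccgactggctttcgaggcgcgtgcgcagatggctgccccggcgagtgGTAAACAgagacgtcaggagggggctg
KLHL24, chr3:183635373-183635672, plus strand: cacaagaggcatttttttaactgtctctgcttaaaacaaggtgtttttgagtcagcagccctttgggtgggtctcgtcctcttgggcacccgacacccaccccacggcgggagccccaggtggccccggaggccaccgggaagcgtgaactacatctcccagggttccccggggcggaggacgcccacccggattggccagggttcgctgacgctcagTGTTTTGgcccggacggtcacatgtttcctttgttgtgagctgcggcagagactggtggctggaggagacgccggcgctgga
YPEL3, chr16:30096164-30096463, minus strand: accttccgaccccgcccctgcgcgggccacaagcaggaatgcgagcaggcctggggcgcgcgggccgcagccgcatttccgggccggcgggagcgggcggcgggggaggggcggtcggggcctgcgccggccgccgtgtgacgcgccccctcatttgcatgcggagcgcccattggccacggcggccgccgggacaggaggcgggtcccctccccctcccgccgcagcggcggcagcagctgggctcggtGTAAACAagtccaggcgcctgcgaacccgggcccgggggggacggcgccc
The match begins at position 24 from the start in FOXO4, at -32 in KLHL24 and at 1 in YPEL3. PIK3IP1 also had a match, GTAAACA at position 17 on the minus strand of its gene. In all, 4 of the 17 windows of the 10 members held either core, against 8.07% of 35116 promoter windows of the same length (3.42% for GTAAACA and 4.92% for CAAAACA). A match is a description of these letters and not a measured binding site, and the windows of the other members held neither core.

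Positions are those of GENCODE 29 on GRCh38. FOXO1 (ENSG00000150907) is on chromosome 13 at 40469953 to 40666597, FOXO3 (ENSG00000118689) on chromosome 6 at 108559835 to 108684774 and FOXO4 (ENSG00000184481) on the X chromosome at 71096197 to 71103535. KLHL24 (ENSG00000114796) is on chromosome 3 at 183635568 to 183684477, CCNG2 (ENSG00000138764) on chromosome 4 at 77157151 to 77433388, and YPEL3 (ENSG00000090238) on chromosome 16 at 30092314 to 30096915. BCL6 (ENSG00000113916) is on chromosome 3 at 187721377 to 187745727 and CITED2 (ENSG00000164442) on chromosome 6 at 139371807 to 139374620. SESN3 (ENSG00000149212) is on chromosome 11 at 95165513 to 95232541 and PIK3IP1 (ENSG00000100100) on chromosome 22 at 31281593 to 31292534. FOXO3, FOXO4, KLHL24 and CCNG2 are on the plus strand and the other 6 on the minus strand. All values are sums over a whole gene, exons and untranslated parts together. FOXO3 has a near copy, FOXO3B on chromosome 17, to which 13 to 48 counts per library were assigned, against 1748 to 3490 for FOXO3. Reads of such copies may have been split by the authors' counting. Antisense genes touch exons of SESN3, PIK3IP1 and YPEL3, with counts of 5.51%, 2.98% and 1.63% of the member's own. The strand setting of the counting is not given in the sources used here, so reads of a member and its antisense partner may not have been separated.

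Per length, FOXO3 was the most abundant member in vehicle. Its level was 12.6 CPM per kilobase of merged exon, against 6.39 for FOXO1 and 6.32 for FOXO4. BCL6, a transcriptional repressor, stood at 5.78, CITED2, a regulator that binds the coactivators CBP and p300, at 5.09, and CCNG2, which encodes cyclin G2, a brake on the cell cycle, at 4.54. YPEL3, a growth-suppressing gene of the yippee-like family, stood at 3.46 and KLHL24, an adaptor of CUL3 ubiquitin ligases, at 2.74. SESN3, a sestrin that restrains mTORC1, and PIK3IP1, a membrane protein that inhibits PI3K, were scarce at 0.376 and 0.281. PIK3IP1 had 15 to 47 counts per library and SESN3 45 to 163, so their values are the least precise: the median SD within a group was 19.2% and 10.8% of the mean, against 3.51% for FOXO3 and 5.14% for KLHL24.

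**Figure D1:**
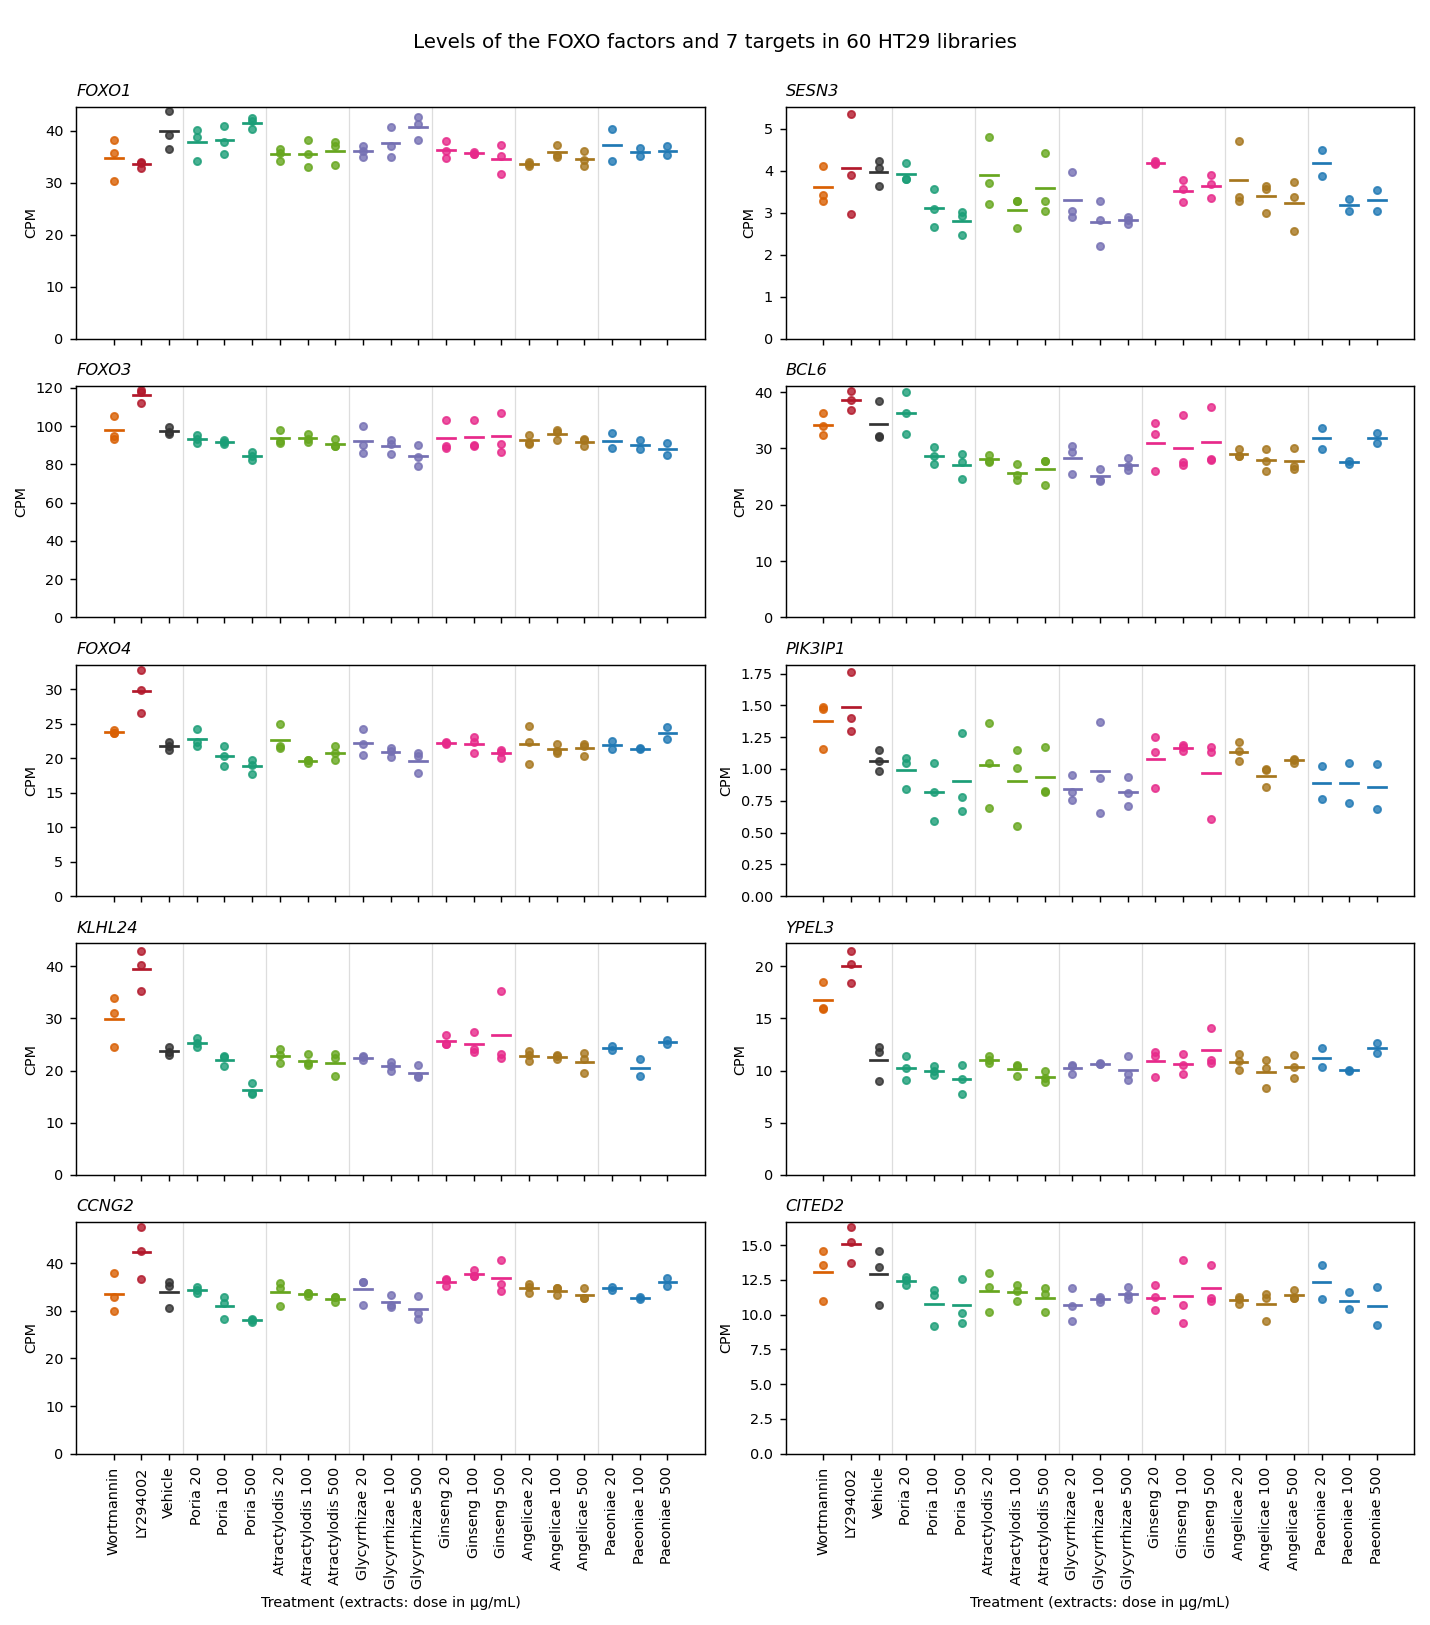
Levels of the 10 genes in CPM (vertical axes) in each library (points) of the 21 groups (horizontal axis), with the group mean as a bar. LY294002 libraries stand highest for FOXO3, FOXO4 and KLHL24, and Poria libraries at 500 µg/mL stand lowest for KLHL24 and CCNG2.

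LY294002 gave the highest mean of all 21 groups for 8 of the 10 genes. The exceptions were SESN3, highest in Ginseng 20 µg/mL libraries (4.19 CPM), and FOXO1, for which LY294002 gave the lowest mean (33.6 CPM) and Poria 500 µg/mL the highest (41.6 CPM). The share of all genes with their highest mean in LY294002 libraries was not counted. This group also had the most genes with an adjusted p under 0.05 against vehicle (edgeR), 6565 of 16767. Most neighbours in the order of groups were not separated: among the 20 steps from highest to lowest mean, the libraries did not overlap in 2 steps for KLHL24, in 1 step each for FOXO3, FOXO4, CCNG2 and YPEL3, and in none for the other 5 genes. For FOXO3, FOXO4 and KLHL24 such a gap lay between LY294002 and the next group, wortmannin. For KLHL24 and CCNG2 it lay between Glycyrrhizae 500 µg/mL and the lowest group, Poria 500 µg/mL. How often such gaps occur among all genes was not counted. The widest range of group means belonged to KLHL24, whose LY294002 mean was 2.43 times its Poria 500 µg/mL mean, and the narrowest to FOXO1, at 1.24 times.

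With LY294002, FOXO3, FOXO4, KLHL24, CCNG2 and YPEL3 rose and FOXO1 fell. A gene was called where edgeR's quasi-likelihood test gave a Benjamini-Hochberg adjusted p under 0.05 over all tested genes. By this rule 5 of 10 members were higher, against 18.7% of all genes, and 1 of 10 lower, against 20.5% of all genes. The median log2 fold change of the 10 genes was 0.29, and that of all genes was 0.01.

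Among the factors themselves, FOXO4 changed most. It had 29.9, 26.6 and 32.8 CPM in LY294002 libraries, against 21.8, 21.2 and 22.3 CPM in vehicle libraries. The groups did not overlap, and the log2 fold change was 0.45 ± 0.07 (SE; adjusted p = 1.08e-06, edgeR). FOXO3 had 118, 119 and 112 CPM in LY294002 libraries, against 99.6, 95.8 and 96.7 CPM in vehicle libraries. Every LY294002 library again stood above every vehicle library, by 0.26 ± 0.06 (adjusted p = 0.000573, edgeR). FOXO1 went the other way, with 34.0, 32.9 and 33.8 CPM in LY294002 libraries, against 36.5, 39.2 and 43.9 CPM in vehicle libraries. It fell by 0.25 on the log2 scale (SE 0.07, adjusted p = 0.00515, edgeR), but without vehicle replicate 3, its highest vehicle library, the change was -0.17 with an adjusted p of 0.082.

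Among the targets, YPEL3 and KLHL24 had the largest changes. YPEL3 had 18.4, 20.2 and 21.5 CPM in LY294002 libraries, against 8.96, 11.8 and 12.3 CPM in vehicle libraries. Its log2 fold change was 0.86 ± 0.11, or 1.82-fold (adjusted p = 9.57e-09, edgeR). KLHL24 had 35.3, 40.3 and 43.0 CPM in LY294002 libraries, against 24.5, 23.6 and 23.0 CPM in vehicle libraries. This was a log2 fold change of 0.74 ± 0.10, or 1.67-fold (adjusted p = 5.76e-08, edgeR), with no overlap. CCNG2 had 36.7, 42.6 and 47.6 CPM in LY294002 libraries, against 35.3, 36.0 and 30.5 CPM in vehicle libraries. The gap between the groups was narrow for CCNG2, whose log2 fold change was 0.32 ± 0.07 (adjusted p = 0.000385, edgeR).

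The other 4 targets were not called with LY294002. PIK3IP1 had 1.4, 1.3 and 1.76 CPM in LY294002 libraries, against 1.15, 0.987 and 1.06 CPM in vehicle libraries. The groups did not overlap, but at these counts the log2 fold change of 0.48 ± 0.25 had an adjusted p of 0.121 (edgeR) and a 95% interval of -0.02 to 0.98. BCL6 changed by 0.17 ± 0.10 and CITED2 by 0.22 ± 0.12, with overlapping libraries and 95% intervals of -0.02 to 0.37 and -0.02 to 0.47. SESN3 averaged 4.08 ± 1.2 CPM in LY294002 libraries and 3.98 ± 0.313 CPM in vehicle libraries (SD, n = 3 each), and its interval of -0.30 to 0.37 leaves room for changes of either sign.

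With wortmannin at the same dose and time, set against the same vehicle libraries, YPEL3 and KLHL24 were called higher and no other member was called. That is 2 of 10 higher, against 6.26% of all genes, and 0 of 10 lower, against 7.46% of all genes. The members' median was 0.01. YPEL3 had 18.5, 15.9 and 16.0 CPM in wortmannin libraries, against 8.96, 11.8 and 12.3 CPM in vehicle libraries, without overlap and with a log2 fold change of 0.61 ± 0.11 (adjusted p = 7.24e-05, edgeR). KLHL24 had 33.9, 31.1 and 24.5 CPM in wortmannin libraries, against 24.5, 23.6 and 23.0 CPM in vehicle libraries. Wortmannin replicate 3 and vehicle replicate 1 were at about the same level for KLHL24, and the log2 fold change was 0.34 ± 0.10 (adjusted p = 0.0208, edgeR). That call was lost without any one of 4 libraries, vehicle replicate 2 or 3 or wortmannin replicate 1 or 2, with values of 0.33, 0.32, 0.23 and 0.31. FOXO1 had 30.4, 35.8 and 38.2 CPM in wortmannin libraries, against 36.5, 39.2 and 43.9 CPM in vehicle libraries, an overlapping difference of -0.20 ± 0.07 with an adjusted p of 0.0613 (edgeR). FOXO3, CCNG2, BCL6 and CITED2 differed from vehicle by -0.01 to 0.01, and the 95% interval of FOXO3 was -0.12 to 0.13. FOXO4 and PIK3IP1 stood above vehicle in every wortmannin library but were not called. FOXO4 had 23.6, 23.6 and 24.1 CPM, against 21.8, 21.2 and 22.3 CPM in vehicle libraries. PIK3IP1 had 1.49, 1.47 and 1.16 CPM, against 1.15, 0.987 and 1.06 CPM. SESN3 averaged 3.6 ± 0.451 CPM in wortmannin libraries and 3.98 ± 0.313 CPM in vehicle libraries (SD, n = 3 each), with overlap.

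Set directly against LY294002, 4 members were lower in wortmannin libraries, against 9.49% of all genes, and 0 were higher, against 12.7% of all genes. FOXO4 differed by -0.33 ± 0.07 (adjusted p = 0.000423, edgeR) and FOXO3 by -0.25 ± 0.06 (adjusted p = 0.00159, edgeR), both without overlap. KLHL24 differed by -0.40 ± 0.10 (adjusted p = 0.00186, edgeR), and CCNG2, whose libraries overlapped, by -0.33 ± 0.07 (adjusted p = 0.000541, edgeR). The KLHL24 call did not hold without wortmannin replicate 3, its lowest wortmannin library (-0.28, adjusted p = 0.0506). For YPEL3 the difference was -0.25 ± 0.10 with an adjusted p of 0.0767 and a 95% interval of -0.46 to -0.04, and for FOXO1 it was 0.05 ± 0.07 with an interval of -0.10 to 0.20.

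**Figure D2:**
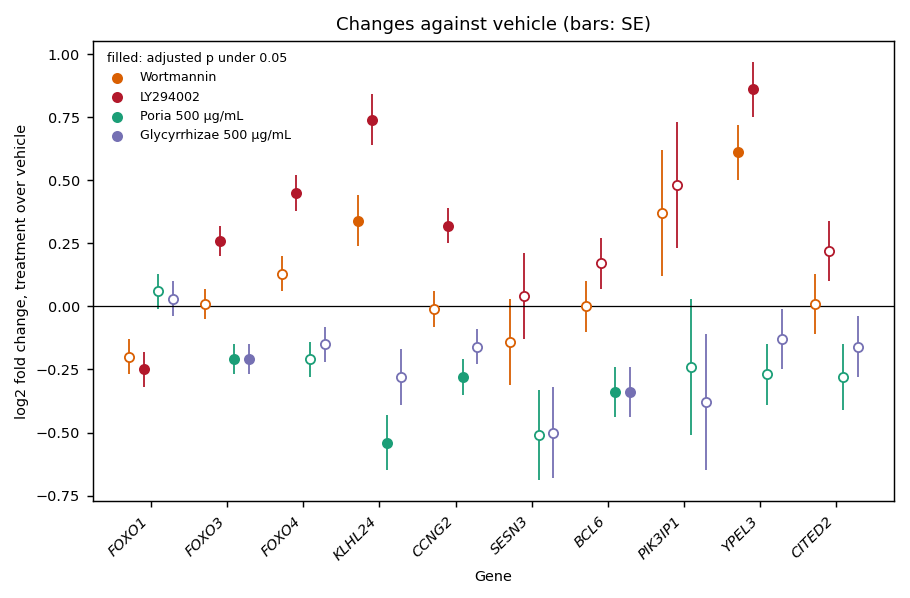
Log2 fold change over vehicle (vertical axis, bars are SE) of the 10 genes (horizontal axis) with wortmannin, LY294002, Poria 500 µg/mL and Glycyrrhizae 500 µg/mL; filled points have an adjusted p under 0.05 (edgeR). With LY294002, 5 filled points lie above 0 and that of FOXO1 below, and with Poria 500 µg/mL 4 filled points lie below 0.

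With Poria at 500 µg/mL, KLHL24, CCNG2, BCL6 and FOXO3 fell and no member rose. That is 4 of 10 lower, against 2.89% of all genes, and 0 of 10 higher, against 4.6% of all genes. The members' median was -0.27, against -0.01 for all genes. KLHL24 had 15.5, 15.7 and 17.6 CPM in Poria 500 µg/mL libraries, against 24.5, 23.6 and 23.0 CPM in vehicle libraries. It fell by 0.54 on the log2 scale (SE 0.11, adjusted p = 0.000746, edgeR), the largest change of a member in any extract group against vehicle. CCNG2 had 28.2, 28.1 and 27.6 CPM in Poria 500 µg/mL libraries, against 35.3, 36.0 and 30.5 CPM in vehicle libraries. Its log2 fold change was -0.28 ± 0.07 (adjusted p = 0.0144, edgeR), with no overlap.

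BCL6 had 24.6, 29.1 and 27.6 CPM in Poria 500 µg/mL libraries, against 32.2, 32.1 and 38.5 CPM in vehicle libraries (-0.34 ± 0.10, adjusted p = 0.0263, edgeR). FOXO3 had 82.1, 84.4 and 86.5 CPM in Poria 500 µg/mL libraries, against 99.6, 95.8 and 96.7 CPM in vehicle libraries (-0.21 ± 0.06, adjusted p = 0.0256, edgeR). Neither gene's groups overlapped. Among the 4 calls, that of KLHL24 held without any single library, at -0.60 to -0.51 on the log2 scale. The call of CCNG2 was lost without vehicle replicate 1 or 2 or Poria 500 µg/mL replicate 3, that of BCL6 without vehicle replicate 3 or Poria 500 µg/mL replicate 1 or 3, and that of FOXO3 without any one of 5 of the 6 libraries. FOXO4 and SESN3 also stood below vehicle in every Poria 500 µg/mL library, by -0.21 ± 0.07 and -0.51 ± 0.18, but their adjusted p were 0.0754 and 0.0643 (edgeR); SESN3 was called where no filter on low counts was used. FOXO1, at 40.4, 42.5 and 41.8 CPM in Poria 500 µg/mL libraries, was 0.06 ± 0.07 above vehicle and not called. Transcripts of the mitochondrial genome made up 7.77 ± 0.446% of all counts of Poria 500 µg/mL libraries, 8.86 ± 0.454% of Poria 20 µg/mL libraries and 9.96 ± 1.38% of vehicle libraries (SD, n = 3 each), and the part of this in the result was not tested.

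The comparison of 500 with 20 µg/mL of Poria, which shares its 500 µg/mL libraries with the one against vehicle and stays within a code set, gave 4 lower members, against 2.3% of all genes, and 0 higher, against 3.21% of all genes. KLHL24 fell by 0.64 on the log2 scale (SE 0.11, adjusted p = 7.59e-05, edgeR), with 15.5, 15.7 and 17.6 CPM in the 500 µg/mL libraries and 26.2, 25.2 and 24.6 CPM in the 20 µg/mL libraries. CCNG2 differed by -0.29 ± 0.07 (adjusted p = 0.0105, edgeR) and averaged 28.0 ± 0.33 CPM at 500 µg/mL and 34.3 ± 0.686 CPM at 20 µg/mL. BCL6 differed by -0.42 ± 0.10 (adjusted p = 0.00545, edgeR) and averaged 27.1 ± 2.32 CPM at 500 µg/mL and 36.3 ± 3.74 CPM at 20 µg/mL. FOXO4 differed by -0.27 ± 0.07 (adjusted p = 0.0162, edgeR) and averaged 18.8 ± 1.06 CPM at 500 µg/mL and 22.8 ± 1.25 CPM at 20 µg/mL (SD, n = 3 for each of these means). None of the 4 genes overlapped between these doses. The calls of KLHL24 and CCNG2 held without any single library, while that of FOXO4 was lost without replicate 3 of either dose and that of BCL6 without Poria 500 µg/mL replicate 1 or Poria 20 µg/mL replicate 3. FOXO3 differed by -0.14 ± 0.06 and FOXO1 by 0.14 ± 0.07, both without overlap but with adjusted p of 0.174 and 0.296 (edgeR).

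Along the doses of Poria, from vehicle through 20 and 100 to 500 µg/mL, mean KLHL24 was 23.7, 25.3, 22.1 and 16.3 CPM and mean CCNG2 33.9, 34.3, 31.0 and 28.0 CPM. BCL6 stood at 34.3, 36.3, 28.7 and 27.1 CPM in the same order. For all 3 genes the 20 µg/mL group was the one nearest vehicle or above it, and no member was called at 20 or 100 µg/mL. The dose effect of Poria was also set against that of Atractylodis, from the same code set. For KLHL24 the difference was -0.55 ± 0.15, with an adjusted p of 0.114 (edgeR). In that test of a difference 0 of 10 members were called, against 0.394% of all genes. There were 3 of 10 members with an unadjusted p under 0.05, against 1356 of 16767 genes. DESeq2 called 1 member, KLHL24, and 103 genes in all.

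**Figure D3:**
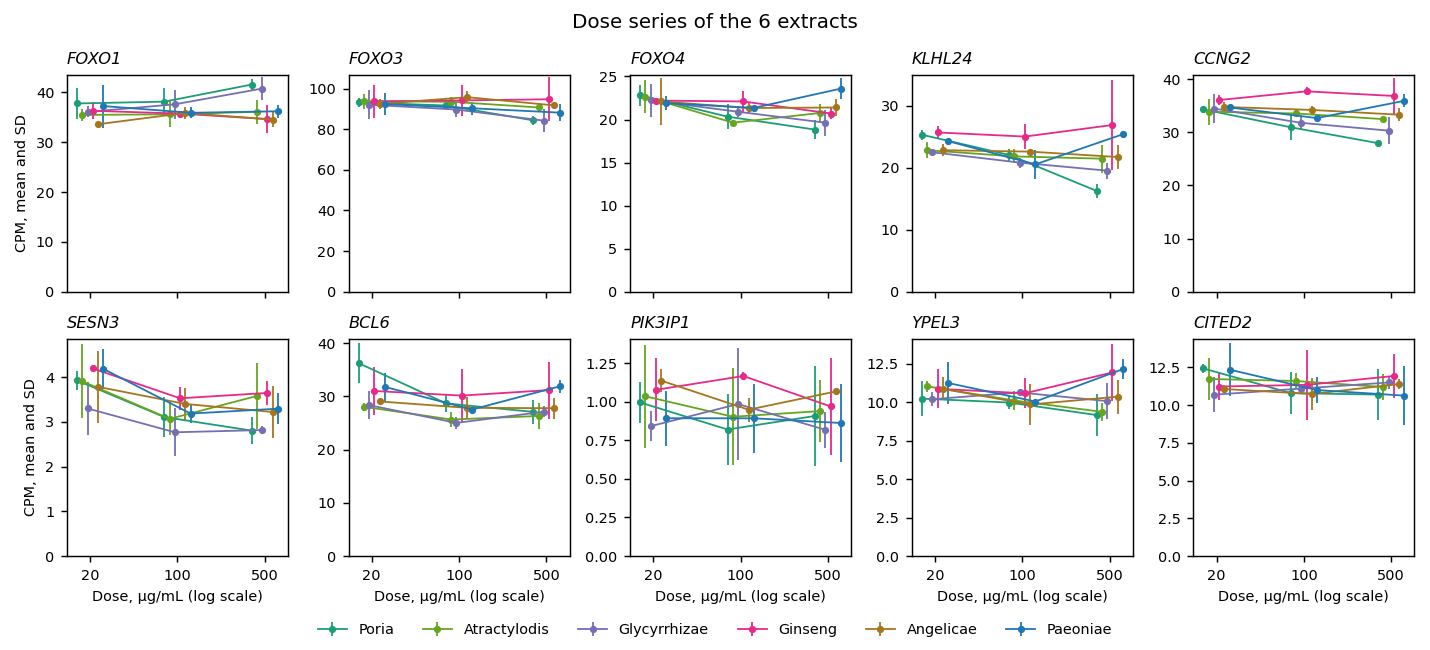
Mean CPM with SD (vertical axes) of the 10 genes at 20, 100 and 500 µg/mL (horizontal axis, log scale) of each of the 6 extracts (lines, shifted sideways for sight). The Poria line falls to 16.3 CPM for KLHL24 and 28.0 CPM for CCNG2 at 500 µg/mL, below the means of the other 5 extracts at that dose.

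Glycyrrhizae at 500 µg/mL lowered 2 of 10 members, FOXO3 and BCL6, against 3.26% of all genes, and raised 0, against 3.65% of all genes. FOXO3 had 90.1, 83.6 and 78.9 CPM in Glycyrrhizae 500 µg/mL libraries, against 99.6, 95.8 and 96.7 CPM in vehicle libraries (-0.21 ± 0.06, adjusted p = 0.0257, edgeR). BCL6 had 26.2, 26.9 and 28.3 CPM in Glycyrrhizae 500 µg/mL libraries, against 32.2, 32.1 and 38.5 CPM in vehicle libraries (-0.34 ± 0.10, adjusted p = 0.0295, edgeR). KLHL24, at 21, 18.7 and 18.9 CPM in Glycyrrhizae 500 µg/mL libraries, lay below every vehicle library, with -0.28 ± 0.11 and an adjusted p of 0.107 (edgeR); it was called without a filter on low counts and with the compared groups fitted alone. The FOXO3 call was lost without any one of 5 of its 6 libraries, the exception being Glycyrrhizae 500 µg/mL replicate 1, and the BCL6 call without vehicle replicate 3 or Glycyrrhizae 500 µg/mL replicate 1 or 2.

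BCL6 was the member most often lower with an extract. Besides Poria and Glycyrrhizae at 500 µg/mL it fell with Glycyrrhizae at 100 µg/mL, where 1 of 10 members was lower against 0.119% of all genes. It had 24.3, 24.4 and 26.4 CPM in those libraries, -0.45 ± 0.10 from vehicle (adjusted p = 0.0216, edgeR). With Atractylodis at 100 µg/mL 1 of 10 members was lower against 0.143% of all genes. There BCL6 had 27.3, 25.3 and 24.4 CPM, -0.42 ± 0.10 from vehicle (adjusted p = 0.0428, edgeR). The mean of BCL6 lay below that of vehicle in 17 of 18 extract groups, the exception being Poria at 20 µg/mL. All 4 BCL6 calls against vehicle were lost without vehicle replicate 3, which at 38.5 CPM stood above the other vehicle libraries, and the values were then -0.36 to -0.25. The 2 calls at 100 µg/mL were also lost without any one of the 3 libraries of the treated group, and the Atractylodis call without vehicle replicate 2. FOXO3 and CITED2 had means below vehicle in 18 of 18 extract groups and FOXO1 in 16 of 18; vehicle lay in another code set from every extract.

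In 14 of the 18 extract groups edgeR called 0 members against vehicle. In those comparisons 0 to 3 of 10 members had an unadjusted p under 0.05, against 834 to 3067 of 16767 genes. DESeq2 called 0 or 1 member, against 0 to 443 genes. The share of all genes called was also low, 0.0417% for Poria at 100 µg/mL, 0.25% and 0.137% for Atractylodis at 500 and 20 µg/mL, 0.37% for Glycyrrhizae at 20 µg/mL and 0.352% for Ginseng at 500 µg/mL. For Angelicae at 20, 100 and 500 µg/mL it was 0.173%, 0.00596% and 0.161%, and for Paeoniae at 100 and 500 µg/mL 0.0477% and 0.161%. It was 0% for Poria, Ginseng and Paeoniae at 20 µg/mL and for Ginseng at 100 µg/mL. They include every Ginseng, Angelicae and Paeoniae group and every extract at 20 µg/mL. For KLHL24 the 95% interval of the log2 fold change over vehicle was -0.02 to 0.39 with Ginseng, -0.34 to 0.08 with Angelicae and -0.13 to 0.33 with Paeoniae at 500 µg/mL. At 500 against 20 µg/mL, 0 members were called for the 5 extracts other than Poria (0 to 4 at an unadjusted p under 0.05, 0 by DESeq2), against 0% of all genes for Atractylodis and Ginseng, 0.0179% for Angelicae, 0.0358% for Paeoniae and 3.85% for Glycyrrhizae (1.83% higher and 2.02% lower). The 4 belonged to Glycyrrhizae, where 2735 of 16767 genes had an unadjusted p under 0.05. FOXO1 was higher by 0.17 ± 0.07, and FOXO3, FOXO4 and CCNG2 were lower by -0.13 ± 0.06, -0.18 ± 0.07 and -0.19 ± 0.07, with adjusted p of 0.163 to 0.281 (edgeR).

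In the Ginseng 500 µg/mL group 1 library stood apart for several members. Replicate 1 had 35.2 CPM of KLHL24, against 22.4 and 23.1 CPM in the other 2 libraries, and 107 CPM of FOXO3, against 86.5 and 90.7 CPM. It also stood highest of the 3 for BCL6 at 37.4 CPM and for YPEL3 at 14.1 CPM. Without it the log2 fold change of KLHL24 over vehicle was -0.06, in place of 0.19 ± 0.10, and that of FOXO3 -0.14, in place of -0.04 ± 0.06. That of FOXO1 moved little, to -0.22 in place of -0.20 ± 0.07. Replicate 1 stood highest for FOXO3 at the lower Ginseng doses too. It had 103 CPM against 90.2 and 89.3 CPM at 100 µg/mL, and 103 CPM against 89.5 and 88.6 CPM at 20 µg/mL. For BCL6 replicate 1 was the highest at 100 µg/mL (35.9 CPM, against 27.6 and 27 CPM) but the lowest at 20 µg/mL (26 CPM, against 32.6 and 34.5 CPM). Replicate 1 was also the highest for FOXO3 with Glycyrrhizae, which shares the code set of Ginseng. It had 90.1 CPM against 83.6 and 78.9 CPM at 500 µg/mL, and 92.6 CPM against 90.8 and 85.6 CPM at 100 µg/mL. At 20 µg/mL it had 99.8 CPM against 90.3 and 86.1 CPM. A shift shared by replicate 1 of this code set was not tested.

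FOXO1 correlated negatively with each of the other 9 genes over the 21 group means of log2 CPM. Pearson r lay between -0.71 with CCNG2 and -0.20 with BCL6. The values for BCL6 and CITED2 were weak, at -0.10 with both over the 18 extract groups alone. All 36 pairs among the other 9 genes were positive, between 0.40 and 0.90, with a median of 0.73. The closest pairs were FOXO4 with KLHL24 at 0.90 and KLHL24 with YPEL3 at 0.88. These are descriptions: the groups share their vehicle, their code sets and the normalisation, and LY294002 is an extreme point for most members. With the group means centred within code sets the FOXO1 pairs lay between -0.72 and -0.13, and over the 18 extract groups alone between -0.75 and -0.10. The other 36 pairs stayed positive in both, at 0.21 to 0.91 and 0.12 to 0.92.

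**Figure D4:**
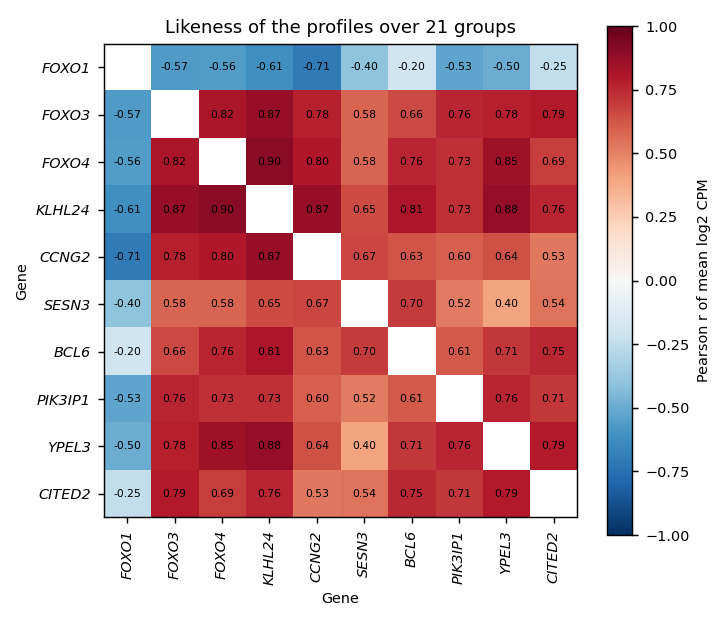
Pearson r over the 21 group means of log2 CPM for each pair of the 10 genes (both axes list the genes; the colour and the printed value give r). The FOXO1 row holds the negative values, -0.71 to -0.20, and the other pairs lie between 0.40 and 0.90.

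The negative correlation of FOXO1 with FOXO3, -0.57 over the 21 group means, shows in the ratio of their counts within a library. This measure was chosen after the values were seen and is given without a test. It was 0.289 ± 0.013 in LY294002 libraries, 0.357 ± 0.046 in wortmannin libraries, 0.493 ± 0.010 in Poria 500 µg/mL libraries, 0.487 ± 0.058 in Glycyrrhizae 500 µg/mL libraries and 0.410 ± 0.044 in vehicle libraries (SD, n = 3 each). LY294002 libraries ranged over 0.277 to 0.303 and Poria 500 µg/mL libraries over 0.484 to 0.504, on either side of the vehicle range of 0.366 to 0.453. The Glycyrrhizae 500 µg/mL range of 0.425 to 0.541 overlapped vehicle. At 20 µg/mL the ratio was 0.406 ± 0.041 with Poria and 0.394 ± 0.038 with Glycyrrhizae. Replicate 1 had the lowest ratio in most groups. In vehicle it was 0.366, against 0.409 and 0.453, and with Glycyrrhizae at 500 µg/mL 0.425, against 0.494 and 0.541. In LY294002 and Poria 500 µg/mL libraries replicate 1 was not the lowest, at 0.288 and 0.492. The SD and ranges given here may therefore hold a shift shared by replicate number, which was not tested.

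**Figure D5:**
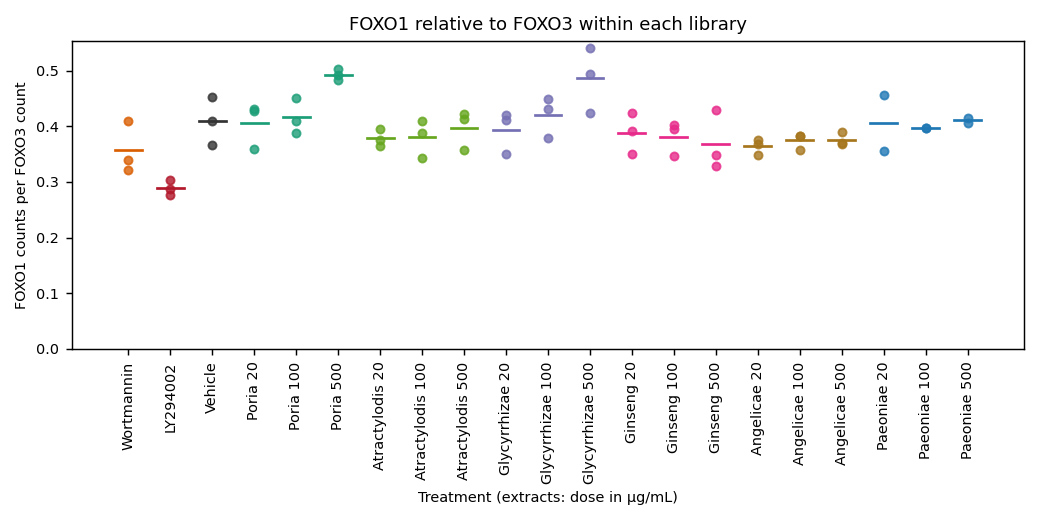
Ratio of FOXO1 to FOXO3 counts (vertical axis) in each library (points) of the 21 groups (horizontal axis), with group means as bars. The 3 LY294002 libraries lie at 0.277 to 0.303, below every vehicle library, and the 3 Poria 500 µg/mL libraries at 0.484 to 0.504, above every vehicle library.

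For each member the 3 genes with the most similar course over the 21 group means were taken from 10633 genes with a mean of at least 5 CPM. KLHL24 was closest to PNRC1 (Pearson r = 0.966), BMF (0.948) and YPEL5 (0.946), a relative of YPEL3. FOXO3 was closest to SIDT2 (0.965), YPEL3 to BACE2 (0.954), FOXO4 to APPBP2 (0.943), BCL6 to CLIP2 (0.921) and CITED2 to DIP2C-AS1 (0.914). CCNG2 was closest to USP20 (0.900) and PIK3IP1 to SLC22A5 (0.892). FOXO1 was closest to PEA15 (0.913), MSN (0.897) and MET (0.891), and SESN3 had the lowest best value, 0.832 with CRYZL2P. These are the highest of 10633 values each, over groups that share libraries and scaling.

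Relatives of the members were looked at as a list. With LY294002, 5 of 9 tested relatives rose and 0 fell, with a median of 0.32, against 18.7% of all genes higher and 20.5% lower. YPEL5 rose by 0.77 ± 0.08 on the log2 scale and YPEL2 by 0.32 ± 0.07. YPEL1, a scarce transcript, rose by 2.02 ± 0.36, at 1.17 ± 0.383 CPM in LY294002 libraries and 0.288 ± 0.173 CPM in vehicle libraries (SD, n = 3 each). CITED4 rose by 0.70 ± 0.16. With Poria at 500 µg/mL, 2 of 9 fell and 0 rose, against 2.89% of all genes lower and 4.6% higher. SESN1, another sestrin, changed by -0.28 ± 0.07 and YPEL5 by -0.31 ± 0.08, and the YPEL5 call was lost without vehicle replicate 1 (-0.29) or Poria 500 µg/mL replicate 3 (-0.27). At 500 against 20 µg/mL of Poria 3 of 9 fell and 0 rose, against 2.3% of all genes lower and 3.21% higher. Among the 3 were YPEL2, at -0.37 ± 0.07, and SESN1, at -0.33 ± 0.07.

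Of 25 other FOXO targets tested, 15 rose and 2 fell with LY294002, with a median of 0.31, against 18.7% of all genes higher and 20.5% lower. BBC3, a pro-apoptotic gene, rose by 1.00 ± 0.14, and EIF4EBP1, a repressor of translation, fell by 0.70 on the log2 scale (SE 0.09). With wortmannin 6 of 25 rose and 1 fell, with a median of 0.13, against 6.26% of all genes higher and 7.46% lower. With Poria at 500 µg/mL 2 rose and 4 fell, against 4.6% of all genes higher and 2.89% lower. TP53INP1, a stress and autophagy gene, fell by 0.89 (SE 0.13) and PMAIP1, another pro-apoptotic gene, rose by 0.51 ± 0.12, a call lost without vehicle replicate 3 (0.45). Of 31 genes whose products act on FOXO proteins, 14 fell and 1 rose with LY294002, against 20.5% of all genes lower and 18.7% higher, and 8 fell and 0 rose with wortmannin, against 7.46% lower and 6.26% higher. XPO1, the exportin that carries proteins out of the nucleus, and SFN, of the family that holds FOXO in the cytoplasm, were both -0.34 from vehicle with LY294002 (SE 0.05 and 0.06). With Poria at 500 µg/mL 2 of 31 rose and 0 fell, a share near the 4.6% of all genes that were higher.

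A further list mixed quiescence genes with genes of the DREAM complex, so a count over it is not a count of quiescence genes alone. Of its 18 tested genes, 6 rose and 8 fell with LY294002, against 18.7% of all genes higher and 20.5% lower. MXD4, a partner of MAX that opposes MYC, rose by 0.66 ± 0.05, while LIN54 and LIN9 of the DREAM complex changed by -0.68 ± 0.05 and -0.66 ± 0.06. With Poria at 500 µg/mL 2 of 18 rose and 3 fell, against 4.6% of all genes higher and 2.89% lower. BTG2, an antiproliferative gene, fell by 0.63 (SE 0.08) and MXD4 by 0.49 (SE 0.06). CDKN1A, which encodes the cyclin-dependent kinase inhibitor p21, rose by 0.42 ± 0.13 (adjusted p = 0.0346, edgeR), a call lost without Poria 500 µg/mL replicate 1 (0.14) or any one of the 3 vehicle libraries (0.39 to 0.45). Of the 14 proliferation genes, all fell with LY294002 (median -0.71), 8 fell with wortmannin (-0.37), 8 rose with Poria at 500 µg/mL (0.15) and 10 rose with Glycyrrhizae at 500 µg/mL (0.20). The shares of all genes were 20.5% lower with LY294002, 7.46% lower with wortmannin, 4.6% higher with Poria and 3.65% higher with Glycyrrhizae. MKI67, a marker of cycling cells, changed by -1.06 ± 0.09 with LY294002, and MCM3, a subunit of the replicative helicase, by 0.24 ± 0.06 with Poria at 500 µg/mL. This Poria call of MCM3 held under every alternative run. The Poria calls of CDK1, CCNB1 and PCNA were lost without vehicle replicate 3 (0.22, 0.2 and 0.17) and with the compared groups fitted alone. The other Poria calls of this list were not recomputed.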

How the data were processed

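Polyadenylated RNA of 60 HT29 libraries was read as 100 bp pairs from a directional library kit, per the labels' protocols. The authors deposited 1 table of expected counts by Ensembl gene identifier, made with RSEM and without scaling; 24.2% of the values above 0 were not whole. Per the submitters' processing notes, FastQC 0.11.9, Trim Galore 0.6.5, STAR 2.7.3a and RSEM 1.3.3 were used with GRCh38 (hg38). Which annotation release and strand option they chose is not given in the sources used here, and 213 further columns of the table were not used. Symbols and coordinates were joined by identifier from GENCODE 29, which named 57055 of 60675 genes and 16654 of the 16767 tested.

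Groups were taken from the labels. The series text gives 2% DMSO for the vehicle, where the sample labels give 0.1%. Expected counts were rounded and filtered with filterByExpr (minimum count 10, minimum total count 15). edgeR 4.0.16 then fitted 1 quasi-likelihood model with TMM scaling and a mean for each of 21 groups (39 residual degrees of freedom, common biological coefficient of variation 0.057). Benjamini-Hochberg adjustment ran across all tested genes in each of 30 comparisons, with calls at an adjusted p under 0.05. Levels are CPM scaled by TMM. SE and 95% intervals are those implied by the F statistic, and similarity used log2 CPM (prior count 2).

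On data simulated for LY294002 against vehicle (16382 genes), the test called 87 of 99 genes changed by 1 on the log2 scale. It called 67 of 96 changed by 0.5, with 7 false among 161 calls. The simulation gave every gene the same coefficient of variation, 0.057, changed few genes and held no outlying library. In the data 18.7% of genes were called higher and 20.5% lower, and LY294002 replicate 3 had a residual SD of 0.158. The simulated rates may therefore not hold for the data. No replicate pair matched within counting noise (lowest chi-square per gene 2.62 over 57 pairs). Alternatives were DESeq2 1.42.0 size factors, the DESeq2 Wald test, no filter, the compared groups alone, a replicate block and leaving out each library. All 10 genes are named; from each further list up to 4 called genes with the largest change per comparison were eligible, and not all are printed. The members and the further lists were chosen with earlier results of these data known. R 4.3.3 and Python 3.11.15 were used.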

Additional observations from a re-analysis of the deposited data

Results flagged for a closer look

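The effect of 500 against 20 µg/mL differed between Poria and Atractylodis, which share a code set, for 6 genes of the further lists and for 0 of the 10 members, against 0.394% of all genes. By list these were 3 of 25 other FOXO targets, 2 of 18 quiescence and DREAM genes and 1 of 9 relatives. In the other lists it was 0 of 31 genes acting on FOXO proteins and 0 of 14 proliferation genes. At an unadjusted p under 0.05 there were 3 of 10 members, against 1356 of 16767 genes. DESeq2 called 1 member, KLHL24, and 103 genes in all. BTG2 differed by -0.62 ± 0.11 on the log2 scale (adjusted p = 0.000759, edgeR), with -0.70 ± 0.08 for Poria and -0.08 ± 0.07 for Atractylodis. MXD4 differed by -0.42 ± 0.08 (adjusted p = 0.00276, edgeR), with -0.53 ± 0.06 for Poria and -0.12 ± 0.06 for Atractylodis. The calls of these 2 genes held under every alternative run. TXNIP, an inhibitor of glucose uptake, differed by -0.48 ± 0.10 (adjusted p = 0.0126, edgeR), and its call was lost without Poria 20 µg/mL replicate 3 (-0.44). CAT, which encodes catalase, differed by -0.22 ± 0.05, SESN1 by -0.39 ± 0.09 and TP53INP1 by -0.77 ± 0.19 (adjusted p = 0.0123, 0.0353 and 0.0399, edgeR), and their calls were lost under 5, 9 and 13 of the alternatives run.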

How the results depend on the processing

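Each of the 24 member calls was recomputed under 11 alternatives: of 264 values, 218 kept their call, 46 lost it and 0 changed sign. For the named genes of the further lists, 1224 of 1422 values kept their call, 198 lost it and 0 changed sign. Leaving out 1 library at a time gave 5 to 6 members called for LY294002, 1 to 3 for wortmannin, 3 to 5 for wortmannin against LY294002, 2 to 3 for Poria 500 µg/mL and 2 to 4 for Poria 500 against 20 µg/mL. It gave 0 to 1 for Glycyrrhizae 500 and 100, Atractylodis 100 and Angelicae 20 µg/mL, and 0 in the other comparisons. With the compared groups fitted alone, which leaves fewer libraries to estimate the spread, 1 member was called for wortmannin (YPEL3), 2 for wortmannin against LY294002 (FOXO3 and FOXO4), 1 for Poria 500 µg/mL (KLHL24), 3 for Poria 500 against 20 µg/mL (FOXO4 lost) and 0 for Atractylodis 100 µg/mL, but 3 for Glycyrrhizae 500 µg/mL (KLHL24 gained). Without a filter, 5 were called for Poria 500 µg/mL (SESN3 gained), 3 for Glycyrrhizae 500 µg/mL (KLHL24 gained), 1 for Atractylodis 500 and 20, Glycyrrhizae 20, Angelicae 500 and 100 and Paeoniae 100 µg/mL (BCL6 in each), 2 for Angelicae 20 µg/mL (FOXO1 and BCL6) and 1 for the difference of the dose effect between Poria and Atractylodis (KLHL24). DESeq2 called 1 for Atractylodis 500 µg/mL (BCL6), 1 for Angelicae 20 µg/mL (FOXO1) and 1 for the Poria and Atractylodis difference (KLHL24). The cause of these changes was not tested.

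Replicate numbers paired the libraries in 0 of the 23 comparisons with 3 pairs, by the rule of a correlation above 0.1 in each pair. Every library correlated best with its own number in 2 of 23. A model with a replicate block lowered the number of genes called in no comparison and raised it in most. This number went from 2300 to 2772 for wortmannin, from 27 to 219 for Angelicae 500 µg/mL and from 0 to 77 for Ginseng 20 µg/mL. A shift shared by libraries of the same replicate number was not tested further. With a replicate block, 1 member was called for Angelicae 20 µg/mL (FOXO1, in place of 0) and FOXO1 was added for wortmannin (-0.20, adjusted p = 0.0219, edgeR). Depth limits PIK3IP1 and SESN3 above all, whose SE were about 0.25 and 0.17 on the log2 scale.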

Other observations

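Glycyrrhizae at 500 against 20 µg/mL, a comparison within a code set, moved no member past the threshold but did move genes outside the members. Of 18 quiescence and DREAM genes tested 3 fell and 1 rose, against 2.02% of all genes lower and 1.83% higher. The 1 that rose was LIN54 of the DREAM complex, by 0.18 ± 0.05 with overlapping libraries, a call lost under 6 of the alternatives run. CDKN1C, an inhibitor of cyclin-dependent kinases, averaged 0.766 ± 0.0978 CPM in the 500 µg/mL libraries and 1.73 ± 0.568 CPM in the 20 µg/mL libraries (SD, n = 3 each). Its difference of -1.18 ± 0.27 on the log2 scale (adjusted p = 0.00671, edgeR) lost its call without Glycyrrhizae 20 µg/mL replicate 3 (-1.04). MXD4 differed by -0.46 ± 0.06 and BTG2 by -0.40 ± 0.07 (adjusted p = 3.45e-07 and 0.000615, edgeR). Among the relatives of the members SESN1 differed by -0.35 ± 0.07 (adjusted p = 0.000969, edgeR), while SESN3 itself differed by -0.24 ± 0.18 and was not called. Of the 14 proliferation genes 6 rose and 0 fell, among them CCNA2, the S-phase cyclin, by 0.32 ± 0.05.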
